A study of Mus musculus with 6 samples.

Results

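Mitosis is carried out by a set of genes that most cells read out late in the cell cycle, and 47 of them were followed here in mouse embryonic stem cells with and without the histone-binding protein Rbbp4. The genes were taken by symbol: kinases, cyclins and phosphatases grouped as entry genes (10 genes), the spindle assembly checkpoint (5), the chromosomal passenger complex (4), centromere and kinetochore proteins (3), the anaphase-promoting complex and sister separation (5), kinesins (6), spindle pole and spindle assembly factors (4), condensin and chromosome structure (7) and cytokinesis (3). The entry genes include Wee1, which holds Cdk1 back, and Plk4 and Ccnf, which have other roles. All 47 symbols were found among the 51912 Ensembl genes of the files. All 47 were also among the 13579 rows with enough signal to be tested, called tested genes below. These rows can include loci assembled from reads that have no Ensembl identifier. The lowest value of any of the 47 genes in any library was 2.69 FPKM (fragments scaled to transcript length and library total), so none was kept through 1 group alone.

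The cells were C57BL/6 embryonic stem cells of 2 genotypes. The 3 control libraries came from Rbbp4F/F cells, F/F being the usual notation for alleles flanked by sites for recombination, and the 3 knockout libraries from Rbbp4-/- cells, titled Rbbp4KO. The labels do not say how or when the alleles were recombined, how many lines were used, or whether replicates are separate cultures. The p-values therefore rest on the spread among these 6 libraries alone, and that spread may be technical.

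As background, cyclin B bound to the kinase Cdk1 drives entry into mitosis, and the spindle checkpoint then holds back the anaphase-promoting complex until chromosomes are attached to the spindle. That complex, a ubiquitin ligase, ends mitosis by marking cyclin B and securin for destruction, which frees separase to cut the link between sister chromatids. Many of these genes are transcribed together in G2 and mitosis through a promoter element called CHR (cell cycle genes homology region), often with CCAAT boxes that bind the factor NF-Y. The CHR is bound by the MuvB core, of which the Rbbp4 protein is a subunit. MuvB joins p130 or p107 and E2f4 in the repressing DREAM complex, and B-Myb (Mybl2) and Foxm1 when the genes are active.

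The promoters of 6 of the genes are shown because they hold, or lack, matches to the elements through which this gene set is known to be read. Each runs from 150 bases before to 30 bases after the RefSeq transcript start (GRCm38.p6), 5′ to 3′ on the gene's strand. Capitals mark whole matches to CHR (TTTGAA or TTCGAA, either strand, so that TTCAAA also counts) and to CCAAT (either strand, so that ATTGG also counts). Here and below a CHR means a match to these letters, and other forms of the element were not searched. The first 4 are the genes with the smallest p-values whose window holds a CHR. Ccnb1 has no match to these letters, which does not show that it lacks the element. Cdc20 was chosen after its values were seen, as a gene with both elements whose level was not called changed.
Anln (chr9:22389177-22389356, minus strand): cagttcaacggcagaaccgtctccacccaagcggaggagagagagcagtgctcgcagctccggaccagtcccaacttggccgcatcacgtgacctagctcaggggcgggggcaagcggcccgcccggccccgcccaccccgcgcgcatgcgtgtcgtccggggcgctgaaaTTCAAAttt
Top2a (chr11:99024160-99024339, minus strand): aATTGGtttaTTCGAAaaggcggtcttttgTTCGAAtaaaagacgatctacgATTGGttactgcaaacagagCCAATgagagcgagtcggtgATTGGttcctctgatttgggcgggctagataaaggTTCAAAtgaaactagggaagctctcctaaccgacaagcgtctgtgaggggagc
Ccnb2 (chr9:70421525-70421704, minus strand): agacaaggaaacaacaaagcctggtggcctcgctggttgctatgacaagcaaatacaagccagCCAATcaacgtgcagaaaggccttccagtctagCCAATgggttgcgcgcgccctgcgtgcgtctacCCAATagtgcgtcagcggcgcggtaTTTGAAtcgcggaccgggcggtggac
Ube2c (chr2:164769779-164769958, plus strand): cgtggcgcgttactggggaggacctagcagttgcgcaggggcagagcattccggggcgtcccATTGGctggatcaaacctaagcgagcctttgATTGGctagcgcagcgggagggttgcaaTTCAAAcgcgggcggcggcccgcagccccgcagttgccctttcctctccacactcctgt
Ccnb1 (chr13:100786457-100786636, minus strand): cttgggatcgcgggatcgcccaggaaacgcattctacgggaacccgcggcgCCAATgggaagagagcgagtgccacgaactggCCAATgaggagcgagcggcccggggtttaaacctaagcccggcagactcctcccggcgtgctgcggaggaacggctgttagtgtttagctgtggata
Cdc20 (chr4:118437314-118437493, minus strand): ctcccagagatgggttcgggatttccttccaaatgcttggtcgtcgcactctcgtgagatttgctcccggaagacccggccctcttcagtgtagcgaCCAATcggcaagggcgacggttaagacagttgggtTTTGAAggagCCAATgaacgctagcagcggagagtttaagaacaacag

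In these windows the elements are arranged differently. Top2a has 4 CHR and 6 CCAAT matches in its full window of 300 bases (250 before to 50 after the start), and Ccnb2 has a CHR just after the start with 3 CCAAT boxes before it and another CHR upstream of the printed stretch. Ube2c has a single CHR, 29 bases before the start, and 6 CCAAT matches. Anln has 2 CHR matches after the start, at bases 22 and 29, the second of which runs past the printed stretch, and no CCAAT. Cdc20 has a CHR 18 bases before the start between 2 CCAAT boxes.

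Windows were available for 39 of the 47 genes. A CHR was found in 29 of the 39 (74.4%), against 21.7% of 27025 mouse genes with such a window, and a CCAAT in 30 (76.9%, against 41.1%). A CCAAT upstream of a CHR was found in 26 (66.7%, against 4.6%). The 2 motifs can overlap, as in Cdca8, where TTTGAA runs into ATTGG. Among genes that fell in the knockout 12 of 16 held a CHR (75.0%), and among those not called 16 of 22 did (72.7%). These matches are descriptions of letters in a window, not binding sites, and no test was made of them.

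**Figure D1:**
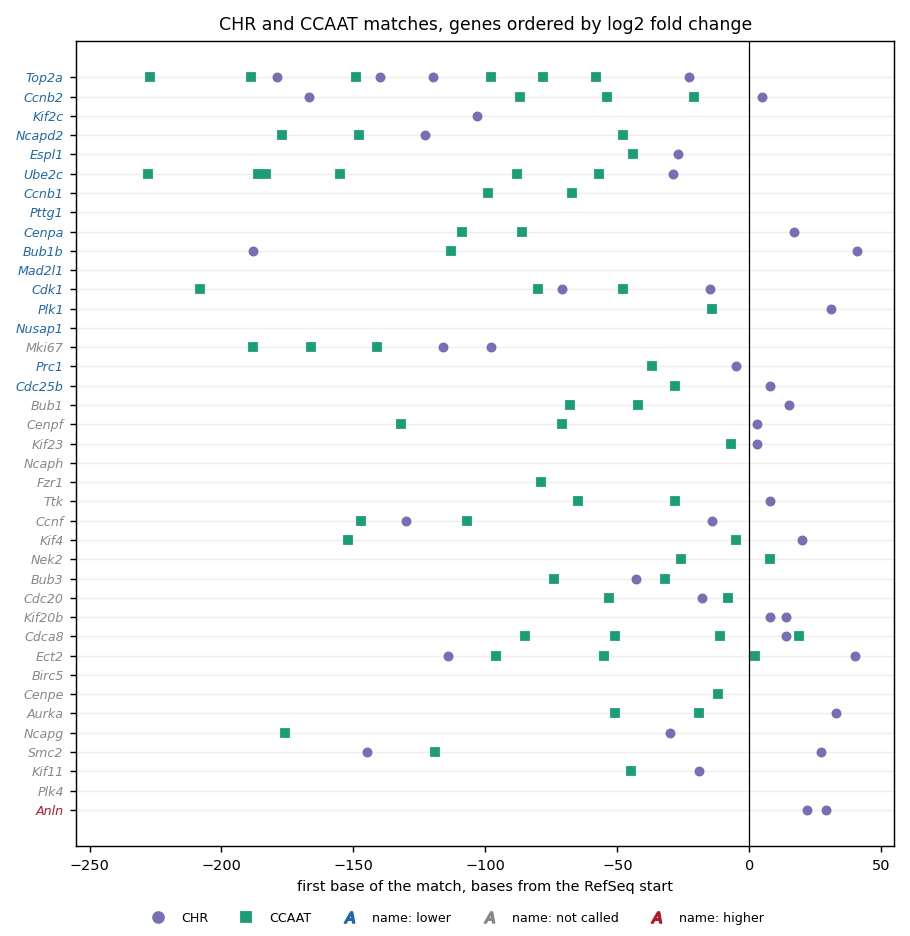
Position of CHR (circles) and CCAAT (squares) matches, in bases from the RefSeq transcript start, for the first window of each of the 39 genes that have one. Genes run from the most negative log2 fold change at the top to the most positive at the bottom, with name colours for the call, and both elements occur among lower and not called genes alike, with no match in 6 windows.

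Per library an estimated 25800000 to 28400000 fragments lay behind the values, and the least covered value of the set, Cdc25c in knockout library 2, rested on about 460 fragments. Rbbp4 itself, the deleted gene, was 58.5, 56.97 and 61.8 FPKM in control libraries 1, 2 and 3 and 21.3, 12.7 and 11.1 FPKM in knockout libraries 1, 2 and 3. Below, values of the controls come first and those of the knockouts second, each in this order of replicates. The knockout libraries were all lower than the controls, by 1.96 on the log2 scale (SE 0.22, limma adjusted p = 0.000394), with the most signal left in knockout 1. Which exons were deleted is not given in the sources used here, the value covers the whole transcript, and 18% of its exons lie under antisense genes (Sync and Gm26722). Summed FPKM of 10 stem cell markers was 4910 to 5030 in the controls and 1590 to 2400 in the knockout, with 7 lower, Sall4 higher and Zfp42 and Lin28a not called. That of 10 trophoblast markers was 116 to 173 and 2210 to 4000, mostly from Krt8 and Krt18, with 8 higher and Eomes and Elf5 not called. 9 of 10 fibroblast markers were below 1 FPKM in all 6 libraries. The part of this shift in cell state in the results was not tested, and in bulk RNA fewer cells in mitosis and less transcript per cell cannot be told apart.

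Of the 47 genes, 23 were lower in the knockout, 1 was higher and 23 were not called (limma on log2(FPKM + 1), adjusted p under 0.05 over all tested genes). Over all tested genes 22.5% were lower and 36.7% higher, 59.1% in all, so the share of lower genes in the set, 48.9%, lay above that background and the share of higher genes, 2.13%, below it. By class, the share lower ran from 28.6% for condensin and chromosome structure to 80% for the entry genes. It was 33.3% each for kinesins, for centromere and kinetochore genes and for cytokinesis, not far from the background in such small classes. Libraries scaled to equal FPKM sums gave 17 lower and 5 higher (Anln, Plk4, Smc4, Birc5 and Aurka), beside 17.5% and 44.7% of all genes. Without knockout 1 there were 24 lower and 4 higher (Anln, Plk4, Smc2 and Smc4), beside 25.6% and 39.9%. The median log2 fold change of the set was -0.27, beside 0.17 for all tested genes. That is a distance of -0.44, which ranged from -0.42 to -0.45 under other scalings of the libraries. In 24 genes every knockout library lay below every control library, where 25.5% of all genes did so, and in 3 genes (Anln, Plk4 and Birc5) every knockout library lay above, where 41.3% did. 5 genes fell by at least 1 on the log2 scale (Ccnb2, Aurkb, Kif2c, Ncapd2 and Top2a), beside 7.12% of all genes, and Anln alone rose by as much, beside 13.4%. With a test against a change of 1.5-fold in place of 0, 9 genes were lower (Ccnb1, Ccnb2, Aurkb, Ube2c, Pttg1, Espl1, Kif2c, Ncapd2 and Top2a) and Anln higher, beside 6.18% and 11.3% of all genes.

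**Figure D2:**
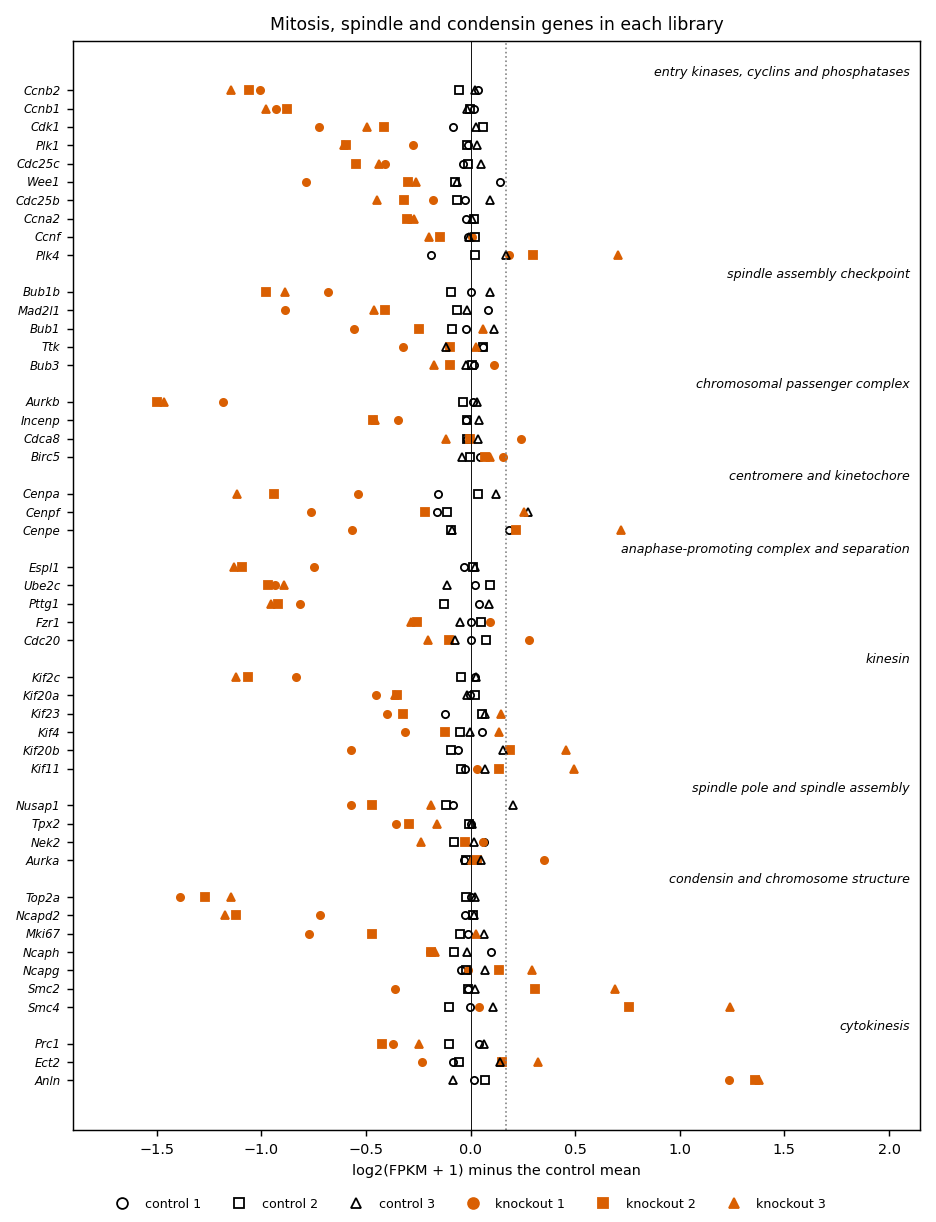
Each of the 47 genes in each library as log2(FPKM + 1) minus the control mean, with open symbols for controls and filled symbols for knockouts, grouped by function and ordered by fold change. The dotted line marks the median fold change of all tested genes, 0.17. By group mean, the knockouts of Aurkb, Top2a and Ccnb2 stand farthest to the left and those of Anln farthest to the right. Single knockout libraries of Ncapd2 and Smc4 reach past some of these.

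Among the entry genes, 8 of 10 fell, none was called higher, and the median log2 fold change was -0.46. Cyclin B2 (Ccnb2, chr9:70407692-70421547), a partner of Cdk1, was 133, 125 and 132 FPKM across the controls and 64.1, 61.6 and 58.1 FPKM across the knockouts. Cyclin B1 (Ccnb1, chr13:100778650-100786570), the essential mitotic cyclin, was 202, 199 and 197 FPKM and 104, 108 and 101 FPKM. For both cyclins all knockout libraries lay close together at a level far below the controls, with no overlap. Ccnb2 fell by 1.07 on the log2 scale (SE 0.07, limma adjusted p = 6.58e-05) and Ccnb1 by 0.93 (SE 0.06, limma adjusted p = 6.94e-05). Each has an annotated pseudogene with which reads could be shared (Ccnb2-ps and Ccnb1-ps).

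Their kinase Cdk1 was 258, 285 and 279 FPKM across the controls and 165, 206 and 194 FPKM across the knockouts. Polo-like kinase Plk1, which acts in entry, spindle formation and cytokinesis, was 176, 175 and 181 FPKM and 146, 117 and 116 FPKM. Both were lower in every knockout library, Cdk1 most in knockout 1 and Plk1 least in that library. Cdk1 fell by 0.55 (SE 0.10, limma adjusted p = 0.00299) and Plk1 by 0.49 (SE 0.10, limma adjusted p = 0.00539). Cyclin A2 (Ccna2), which acts in S phase and G2, fell as well, from a mean of 101 FPKM (SD 1.36, n = 3) to 82.3 FPKM (SD 1.05, n = 3), by 0.29 (limma adjusted p = 0.0062). The ratio of Ccnb1 to Ccna2 within a library went from a mean of 1.98 (SD 0.0493, n = 3) to 1.27 (SD 0.0589, n = 3).

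The phosphatases Cdc25b and Cdc25c, which remove the inhibitory phosphate from Cdk1, and Wee1, the kinase that puts it there, were all low compared with their target and all fell. Cdc25c went from a mean of 11.1 FPKM (SD 0.387, n = 3) to 7.79 FPKM (SD 0.442, n = 3), a fall of 0.47 (limma adjusted p = 0.00678). Wee1 fell by 0.45 (limma adjusted p = 0.0438) and Cdc25b by 0.32 (limma adjusted p = 0.0398). These 2 calls were close to the threshold. That of Wee1 was lost without any 1 of the 3 control libraries or knockout 2 (log2 fold change -0.52 to -0.38), and that of Cdc25b without any 1 library except knockout 1 (-0.35 to -0.25). Ccna2, Wee1 and Cdc25b also lost their calls when libraries were scaled to equal FPKM sums (-0.13, -0.30 and -0.17), and Wee1 and Cdc25b with no filter on low values (limma adjusted p = 0.0867 and 0.0533).

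Cyclin F (Ccnf), the substrate receptor of a ubiquitin ligase, was 96.7, 98.8 and 96.9 FPKM across the controls and 98.1, 88.1 and 84.7 FPKM across the knockouts. Plk4, the kinase that starts centriole duplication, was 7.83, 9.22 and 10.3 FPKM and 10.4, 11.4 and 15.4 FPKM. The Ccnf groups overlapped through knockout 1, while all 3 Plk4 knockout values lay above the controls, the lowest by a small margin. Neither passed the test, with a log2 difference of -0.11 (95% interval -0.29 to 0.07) for Ccnf and 0.40 (95% interval -0.01 to 0.80) for Plk4. Without knockout 1 Ccnf was called lower (-0.17) and Plk4 higher (0.50). Ccnf was also called lower with median-ratio (-0.30) and upper-quartile scaling (-0.27), and Plk4 higher with equal FPKM sums (0.54).

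**Figure D3:**
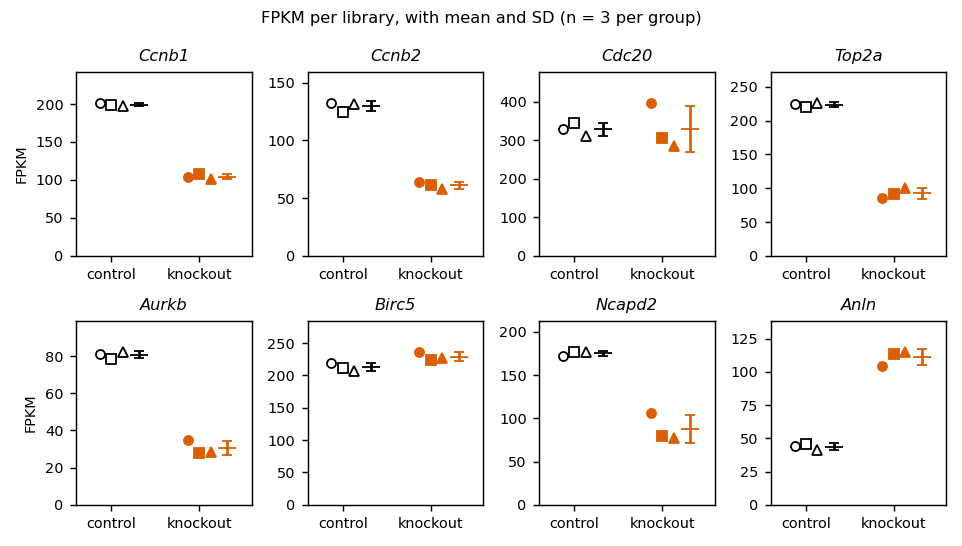
FPKM in each library for 8 genes, with the mean and SD of each group beside the points (n = 3 per group, axes from 0). Ccnb1, Ccnb2, Top2a, Aurkb and Ncapd2 are lower in all knockout libraries, Anln is higher in all, Birc5 is slightly above the controls in all, and Cdc20 overlaps.

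Of the 5 checkpoint genes 2 fell and 3 were not called. BubR1 (Bub1b), the subunit of the inhibitory complex that binds Cdc20, was 84.2, 78.9 and 89.7 FPKM across the controls and 52.2, 42.3 and 45.1 FPKM across the knockouts. Mad2 (Mad2l1), its partner in that complex, was 48.9, 43.97 and 45.5 FPKM and 24.5, 34.5 and 33.1 FPKM. Every knockout value of both genes was below every control value, and knockout 1 was the highest knockout for Bub1b and the lowest for Mad2l1. Bub1b fell by 0.85 (SE 0.10, limma adjusted p = 5e-04) and Mad2l1 by 0.59 (SE 0.14, limma adjusted p = 0.00911).

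The other 3 checkpoint genes were those not called. The kinase Bub1 was 21.6, 20.6 and 23.8 FPKM across the controls and 14.6, 18.4 and 22.9 FPKM across the knockouts. Bub3, which docks Bub1 and BubR1 at the kinetochore, was 128, 127 and 125 FPKM and 137, 119 and 113 FPKM. The kinase Mps1 (Ttk) was 11.9, 11.9 and 10.4 FPKM and 8.91, 10.6 and 11.7 FPKM. In each of the 3 the groups overlapped, with knockout 1 the lowest library for Bub1 and Ttk and the highest for Bub3. Their log2 differences were -0.25 (95% interval -0.63 to 0.14), -0.05 (-0.26 to 0.15) and -0.13 (-0.43 to 0.17). Bub1 was called lower without knockout 3 (-0.40) and with a loess correction for GC content and length (-0.43), and with median-ratio scaling so was Bub3 (-0.25).

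The chromosomal passenger complex, which corrects faulty spindle attachments, split within itself. Its kinase Aurora B (Aurkb, chr11:69045647-69051664) was 81.2, 78.6 and 82.4 FPKM across the controls and 35.03, 27.9 and 28.6 FPKM across the knockouts. Its scaffold Incenp was 85.6, 85.8 and 89.4 FPKM and 68.2, 62.5 and 63.04 FPKM. Both were lower in every knockout library, Aurkb the more so. Aurkb fell by 1.38 (SE 0.10, limma adjusted p = 8.74e-05), the most negative value of the 47, and Incenp by 0.42 (SE 0.07, limma adjusted p = 0.00208).

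The subunits that bring the complex to the centromere were not called. Survivin (Birc5, chr11:117849251-117855743) was 219.6, 212 and 207 FPKM across the controls and 237, 223 and 227 FPKM across the knockouts. Borealin (Cdca8) was 124, 125 and 129 FPKM and 149, 126 and 116 FPKM. The Birc5 knockout values lay just above the controls and those of Cdca8 on both sides of them. The log2 differences were 0.10 (95% interval -0.05 to 0.26) and 0.04 (-0.20 to 0.28). Both signs turned with median-ratio scaling (-0.09 and -0.15), while with equal FPKM sums Birc5 was called higher (0.26).

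Within a library the ratio of Aurkb to Birc5 FPKM was 0.37, 0.37 and 0.398 in the controls and 0.148, 0.125 and 0.126 in the knockout. Such a ratio does not depend on how the libraries are scaled. The ratio of Aurkb to Cdca8 went from a mean of 0.641 (SD 0.0114, n = 3) to 0.234 (SD 0.0122, n = 3). In each ratio the 2 groups stood far apart compared with their spread. These and the other ratios printed here, 7 in all, were chosen after the values were seen and are descriptions. An exact two-sided permutation test gave p = 0.1 for each (0.1 adjusted over the 7), the smallest that 3 against 3 libraries allow.

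Of the 3 centromere and kinetochore genes only Cenpa, the histone H3 variant that marks centromeres, was called. It was 162, 185 and 196 FPKM across the controls and 124, 93.5 and 82.6 FPKM across the knockouts. The groups did not overlap, and knockout 1 was nearest to the controls. Cenpa fell by 0.86 (SE 0.16, limma adjusted p = 0.00302). The kinetochore motor Cenpe was 9.42, 7.59 and 7.61 FPKM and 5.19, 9.64 and 14.1 FPKM, and Cenpf, a large protein of the outer kinetochore, was 4.61, 4.79 and 6.59 FPKM and 2.69, 4.4 and 6.48 FPKM. In both, knockout 1 was the lowest of all libraries, knockout 2 lay in between and knockout 3 was the highest knockout. With such a spread the intervals of the log2 difference were wide, -0.61 to 0.85 for Cenpe and -0.88 to 0.40 for Cenpf.

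The genes of the anaphase-promoting complex and of sister separation had the most negative median, -0.90, and 3 of 5 fell. UbcH10 (Ube2c), the enzyme that hands ubiquitin to the complex, was 405, 427 and 369 FPKM across the controls and 208, 204 and 214 FPKM across the knockouts. Securin (Pttg1), which holds separase inactive, was 119, 106 and 123 FPKM and 65.3, 60.6 and 59.2 FPKM. Separase (Espl1), the protease that cuts cohesin, was 43.2, 44.5 and 44.8 FPKM and 25.9, 20.2 and 19.6 FPKM. All 3 genes were at about the same share of the control in the knockout, with tight knockout values for Ube2c and Pttg1 and a higher knockout 1 for Espl1. The knockout mean was 52.2% of the control mean for Ube2c (log2 fold change -0.93, SE 0.08, limma adjusted p = 0.000128), 53.2% for Pttg1 (-0.90, SE 0.08, limma adjusted p = 0.000213) and 49.6% for Espl1 (-0.99, SE 0.12, limma adjusted p = 0.000487). Exons of Tnnc2 on the other strand cover 22.8% of Ube2c, and whether strand was used in counting is not given in the sources used here.

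The 2 activators of the complex were not called. Cdc20 (chr4:118432901-118437352), which directs it in early mitosis and is the checkpoint's target, was 329, 345 and 311 FPKM across the controls and 398, 305 and 285 FPKM across the knockouts. Cdh1 (Fzr1), which takes over later and in G1, was 74.4, 76.8 and 71.7 FPKM and 79.3, 61.97 and 60.9 FPKM. Knockout 1 was the highest library for both, and the other 2 knockouts were below the controls. The log2 differences were -0.01 (95% interval -0.32 to 0.30) and -0.15 (-0.42 to 0.12), and Fzr1 was called lower without knockout 1 (-0.27) and with median-ratio (-0.34) or upper-quartile scaling (-0.31). The ratio of Ube2c to Cdc20 within a library was 1.23, 1.24 and 1.18 in the controls and 0.523, 0.667 and 0.754 in the knockout. It was lower in every knockout library, and both genes have a CHR and CCAAT boxes in the windows above.

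Among 6 kinesins 2 fell. Mcak (Kif2c), which takes microtubule ends apart to correct attachments, was 63.8, 60.6 and 63.9 FPKM across the controls and 34.8, 29.5 and 28.3 FPKM across the knockouts. Mklp2 (Kif20a), which carries the passenger complex to the midzone, was 79.9, 81.3 and 79.01 FPKM and 58.3, 62.5 and 62.1 FPKM. Neither gene's groups overlapped, and Kif2c was the further apart. Kif2c fell by 1.01 (SE 0.10, limma adjusted p = 0.000219) and Kif20a by 0.39 (SE 0.07, limma adjusted p = 0.00249). Exons of Cdc23 on the other strand cover 29.3% of Kif20a.

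The motors that build the spindle and midzone were not called. Eg5 (Kif11), which pushes the poles apart, was 18.2, 17.97 and 19.5 FPKM across the controls and 18.9, 20.5 and 26.5 FPKM across the knockouts. Mklp1 (Kif23), part of the centralspindlin complex of cytokinesis, was 34.1, 38.6 and 39.1 FPKM and 27.9, 29.5 and 41.3 FPKM. The chromosome-bound motor Kif4 was 15.2, 14.1 and 14.6 FPKM and 11.6, 13.3 and 16.2 FPKM. In all 3 the groups overlapped, and knockout 3 was the highest library of the 6. Kif20b (Mphosph1) did the same, with 6.07, 5.9 and 7.19 FPKM and 3.95, 7.4 and 9.12 FPKM. The log2 differences of these 4 kinesins ran from -0.19 for Kif23 (95% interval -0.56 to 0.17) to 0.22 for Kif11 (-0.10 to 0.54), and without knockout 3 Kif23 was called lower (-0.36). The ratio of Kif2c to Kif11 went from a mean of 3.38 (SD 0.114, n = 3) to 1.45 (SD 0.385, n = 3).

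At the spindle pole, Tpx2, which activates Aurora A and nucleates microtubules, was 79.3, 78.6 and 79.5 FPKM across the controls and 61.6, 64.4 and 70.8 FPKM across the knockouts. Nusap1, which bundles microtubules near chromosomes, was 17.6, 17.3 and 21.8 FPKM and 12.3, 13.3 and 16.4 FPKM. Both fell with modest size, and the highest knockout of Nusap1 was close to its lowest control. Tpx2 fell by 0.27 (SE 0.08, limma adjusted p = 0.0193) and Nusap1 by 0.41 (SE 0.14, limma adjusted p = 0.0416). The Tpx2 call was lost without any 1 control library or knockout 2 (log2 fold change -0.27 to -0.26), the Nusap1 call without any 1 library except knockout 3 (-0.47 to -0.31), and both with equal FPKM sums (-0.11 and -0.26). Nusap1 was also not called with no filter on low values (limma adjusted p = 0.0758). Aurora A (Aurka) was 128, 129 and 136 FPKM and 168, 134 and 132 FPKM, and the centrosome kinase Nek2 was 33.5, 30.3 and 32.4 FPKM and 33.4, 31.5 and 27 FPKM. Aurka was highest in knockout 1 and its other knockouts lay among the controls. The Nek2 groups overlapped except for knockout 3, which lay below every control. The log2 differences of Aurka and Nek2 were 0.13 (95% interval -0.12 to 0.38) and -0.07 (-0.31 to 0.17), neither called. With equal FPKM sums Aurka was called higher (0.29).

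Of the 7 genes of condensin and chromosome structure 2 fell and 5 were not called. Topoisomerase II alpha (Top2a, chr11:98992943-99024189), which untangles sister DNA, was 224, 220.4 and 227 FPKM across the controls and 84.9, 92.2 and 101 FPKM across the knockouts. The condensin I subunit Ncapd2 (chr6:125168007-125191701) was 172, 177 and 177 FPKM and 106, 80.05 and 77.3 FPKM. The knockout values of both genes stood far below the controls, with knockout 1 the lowest for Top2a and the highest for Ncapd2. Top2a fell by 1.27 (SE 0.08, limma adjusted p = 5.7e-05) and Ncapd2 by 1.01 (SE 0.12, limma adjusted p = 0.000601).

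The other subunits of the same complex were not called. The kleisin Ncaph, which closes the condensin I ring, was 46.3, 40.9 and 42.7 FPKM and 37.6, 37.8 and 38.3 FPKM, all knockouts below all controls. Ncapg, a further regulatory subunit of condensin I, was 14.2, 14.5 and 15.5 FPKM and 14.6, 16.3 and 18.3 FPKM, with overlap. Ncaph missed the threshold with -0.19 (SE 0.08, limma adjusted p = 0.0756) and passed it with median-ratio (-0.37) and upper-quartile scaling (-0.35) and the loess correction (-0.21), and Ncapg differed by 0.14 (95% interval -0.12 to 0.40). The ratio of Ncapd2 to Ncaph went from a mean of 4.07 (SD 0.317, n = 3) to 2.32 (SD 0.436, n = 3).

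The ATPases Smc2 and Smc4, shared by condensin I and II, spread widely in the knockout. Smc2 was 10.02, 10.02 and 10.3 FPKM across the controls and 7.64, 12.7 and 16.9 FPKM across the knockouts. Smc4 was 17.1, 15.9 and 18.5 FPKM and 17.7, 29.6 and 41.9 FPKM. For both, knockout 1 was the lowest knockout and knockout 3 the highest of all libraries, and the controls lay close together. Smc4 differed by 0.68 (SE 0.28, limma adjusted p = 0.0711) and Smc2 by 0.21 (SE 0.25, limma adjusted p = 0.493). Without knockout 1 both were called higher, Smc4 with 1.00 and Smc2 with 0.50, and Smc4 also with equal FPKM sums (0.83). The proliferation marker Mki67, which coats mitotic chromosomes, was 15.4, 15.1 and 16.4 FPKM and 8.73, 10.97 and 15.9 FPKM, again lowest in knockout 1. Its difference of -0.41 (limma adjusted p = 0.116) became a call without knockout 3 (-0.62), with median-ratio scaling (-0.59) and with the loess correction for GC content and length (-0.53).

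Cytokinesis held the gene that went the other way. Anillin (Anln, chr9:22332012-22389188), which links actin, myosin and septins in the cleavage furrow, was 44.2, 45.9 and 41.1 FPKM across the controls and 104, 114 and 115 FPKM across the knockouts. The knockout mean was 2.54 times the control mean, and no other gene of the 47 was called higher. Anln rose by 1.32 on the log2 scale (SE 0.08, limma adjusted p = 5.23e-05). Prc1, which crosslinks the midzone, was 69.3, 62.6 and 70.6 FPKM and 51.9, 50.01 and 56.7 FPKM. Ect2, which activates RhoA at the furrow, was 30.7, 31.3 and 36.04 FPKM and 27.6, 36.3 and 40.95 FPKM. Prc1 was lower in all knockouts, while Ect2 overlapped, lowest in knockout 1 and highest in knockout 3. Prc1 fell by 0.35 (SE 0.08, limma adjusted p = 0.0108), a call lost without control 1 (-0.33) and with equal FPKM sums (-0.19), and Ect2 differed by 0.08 (95% interval -0.28 to 0.44). The ratio of Anln to Ect2 was 1.44, 1.47 and 1.14 in the controls and 3.78, 3.13 and 2.82 in the knockout.

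The genes not called were mostly those of lower level. Of the 23 genes with a mean over all libraries above the set's median of 55.6 FPKM, 15 fell and 1 rose, and of the 24 at or below it 8 fell. The median control mean was 84.3 FPKM for genes that fell and 22 FPKM for genes not called. Transcripts of the genes not called also had a lower median GC content, 46.3% against 48.7%, and a greater median length, 3975 against 3449 bases.

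The 3 knockout libraries also differed among themselves. Knockout 1 was the lowest knockout in 15 of the 23 genes not called and knockout 3 the highest in 15, and the median of the log2 difference between knockout 3 and knockout 1 was 0.45. In the 23 genes that fell this median was -0.05. Over all 13579 tested genes knockout 1 was the lowest knockout in 5434 and knockout 3 the highest in 4377. For those with an annotated transcript the median was -0.04. A wide spread among the knockouts works against a call, so the contrast between these groups of genes partly follows from how they were formed. Across the 47 genes the log2 difference had a Spearman correlation of -0.78 with the GC content of the longest transcript and of 0.52 with its length, beside -0.51 and 0.22 over the 13158 tested genes with an annotated transcript. Genes are not independent, and these correlations describe 2 libraries. With a loess correction for GC content and length (chosen after seeing the data) the median of the set was -0.36. The part of GC content in the calls was not tested further.

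**Figure D4:**
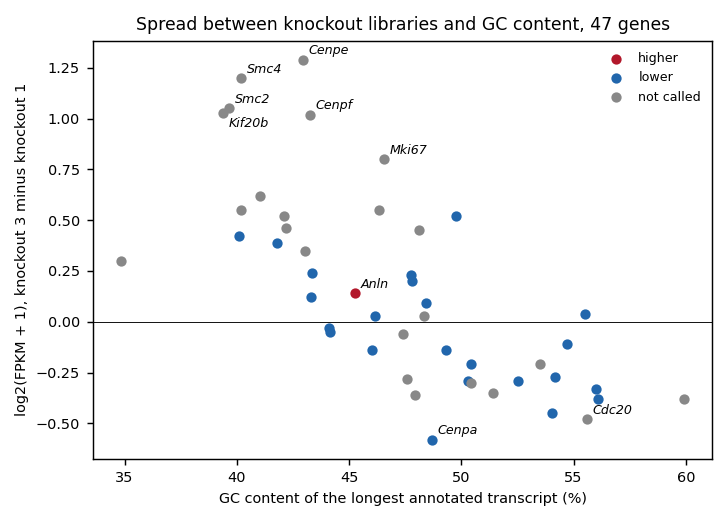
For each of the 47 genes, the log2(FPKM + 1) of knockout library 3 minus that of knockout library 1 against the GC content of the longest annotated transcript, coloured by the call. Genes with low GC content such as Smc4, Smc2, Kif20b, Cenpe and Cenpf are higher in knockout 3, and genes with higher GC content such as Cdc20 are higher in knockout 1.

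Beyond the 47, 118 other genes of mitosis were listed by the same functions, with cohesin added. Of these 23 fell, 38 rose and 57 were not called, and their median was 0.08, a distance of -0.09 from that of all genes. The shares, 19.5% lower and 32.2% higher, were near the background of 22.5% and 36.7%. The split turned with the scaling, to 36 lower and 21 higher with median-ratio scaling and 35 and 22 with the upper quartile, and with a test against 1.5-fold 2 were lower and 4 higher. Without control 1, control 2 or knockout 2, the number higher was 23, 22 and 25. No test was made of the 47 against these genes.

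The class counts of these 118 genes stand beside the same background, 22.5% lower and 36.7% higher. The share higher was 85.7% in the checkpoint, 28.1% at the kinetochore and 25% in cohesin. Of the other 12 entry genes 5 fell and 3 rose. The Cdk1-binding subunits Cks2 (-0.58) and Cks1b (-0.35) fell, with Bora (-0.47), which helps to activate Plk1, the Cdk1-inhibiting kinase Pkmyt1 (-0.39) and Melk (-0.27), and Ensa (0.33), an inhibitor of the opposing phosphatase, rose with its kinase Mastl (0.55) and with Gtse1 (0.18). In the checkpoint, where 1 of 7 fell and 6 rose, Kntc1, also called Rod, fell (-0.56), while its partners in the RZZ complex rose, Zwilch (0.72) and Zw10 (0.51), with Mad2l1bp (0.83), Spdl1 (0.69), Mad1l1 (0.61) and Trip13 (0.34). At the kinetochore 3 of 32 fell and 9 rose. Zwint rose most, from a mean of 85.1 FPKM (SD 2.46, n = 3) to 240.9 FPKM (SD 20.2, n = 3), a rise of 1.49 on the log2 scale (SE 0.08, adjusted p by limma = 4.27e-05). It was followed by Ska2 (1.22), Nsl1 (1.07), Dsn1 (0.64), Cenpk (0.64), Mis12 (0.62), Cenpt (0.54), Oip5 (0.44) and Mis18a (0.25). Mis12, Dsn1 and Nsl1 are 3 subunits of the MIS12 complex, which joins the centromere to the outer kinetochore. Pmf1, also of that complex, differed by 0.16 with limma adjusted p = 0.303 and was not called. In the same class Cenpm fell from 57.8 FPKM (SD 2.24, n = 3) to 22.6 FPKM (SD 2.096, n = 3), by 1.32 (limma adjusted p = 7.42e-05), with Cenpw (-0.44) and the helicase PICH (Ercc6l, -0.37).

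Of 16 genes of the anaphase-promoting complex and sister separation 3 fell and 5 rose. The core subunit Anapc5 fell (-0.76), as did the complex's inhibitor Emi1 (Fbxo5, -0.92) and the enzyme Ube2s (-0.31), and Anapc10 (0.86), Cdc27 (0.51), Cdc23 (0.49), Cdc16 (0.41) and Anapc16 (0.41) rose. In cohesin none fell and 3 of 12 rose, Stag1 (1.46), Stag2 (0.91) and Pds5b (0.48). Of 8 kinesins Kif14 (-0.76) and Kif22 (-0.60) fell, and Kif18b (1.00) and Kifc1 (0.24) rose. At the spindle pole 7 of 21 fell and 8 rose. Depdc1b (-0.90), Kpna2 (-0.89), Knstrn (-0.86), Fam83d (-0.64), Tubg1 (-0.49), Cep192 (-0.45) and Spag5 (-0.43) fell, and the centriole factors Sass6 (0.92), Cep152 (0.52) and Stil (0.45) rose, with Depdc1a (0.61), Hmmr (0.57), Ckap2l (0.50), Psrc1 (0.39) and Numa1 (0.24). Top2b, the isoform of topoisomerase II that is not tied to the cell cycle, rose by 0.71, from a mean of 2.86 FPKM to 5.38 FPKM, opposite to Top2a. Of 4 cytokinesis genes Cit (-0.62) and Racgap1 (-0.39), a partner of Ect2, fell, and Shcbp1 rose (0.95). Values in parentheses are log2 fold changes of genes past the same threshold, and those of Gtse1, Kifc1, Numa1 and Mis18a stand close to the median of all genes, 0.17.

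**Figure D5:**
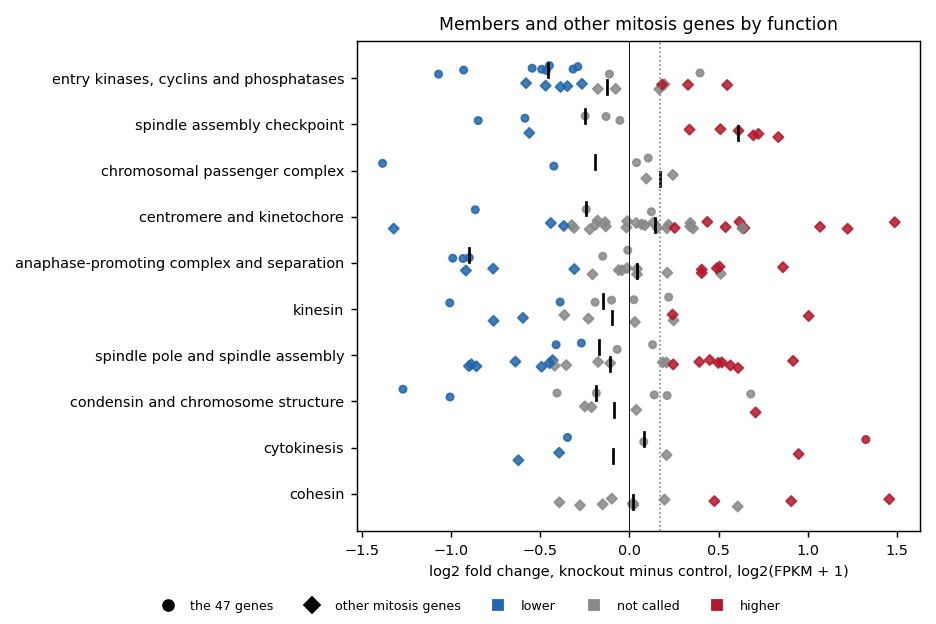
Log2 fold change of the 47 genes (circles) and the 118 other mitosis genes (diamonds) by function, coloured by the call, with black bars for the medians of each row and a dotted line at the median of all tested genes, 0.17. Circles called lower lie in every class of the 47 and a circle called higher, Anln, only in cytokinesis, while diamonds lie on both sides.

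Of the factors known to control these promoters, B-Myb (Mybl2) fell from a mean of 367 FPKM (SD 6.13, n = 3) to 169 FPKM (SD 29.8, n = 3), by 1.13 (limma adjusted p = 0.00036). Of 13 such factors 5 fell, 3 rose and 5 were not called. These are 38.5% lower and 23.1% higher, beside 22.5% and 36.7% of all tested genes. Foxm1 was 29.1, 25.7 and 30.5 FPKM across the controls and 81.3, 60.9 and 61.8 FPKM across the knockouts, a rise of 1.22 (limma adjusted p = 0.000366) in all 3 libraries. Of the other MuvB subunits Lin52 (-2.36) and Lin37 (-0.47) fell, and Lin9 (1.17) and Lin54 (0.83) rose. Lin52 spread widely, with 54.7, 31.1 and 43.5 FPKM across the controls and 8.85, 9.88 and 4.44 FPKM across the knockouts. Among their partners E2f4 (-0.32) and the NF-Y subunit Nfya (-0.48) fell, and p107 (Rbl1), p130 (Rbl2), Tfdp1, Nfyb and Nfyc were not called. Rbl2 was 1.63, 0.86 and 2.03 FPKM across the controls and 1.44, 2.34 and 9.69 FPKM across the knockouts, high in knockout 3 alone. Of 28 genes of DNA replication, which act before mitosis, 18 fell and 1 rose, with a median of -0.56. These are shares of 64.3% and 3.57%, beside 22.5% and 36.7% of all tested genes and 48.9% and 2.13% of the 47. The median lay -0.73 from that of all tested genes, a greater distance than the -0.44 of the 47.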

How the data were processed

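Total RNA of 6 libraries, 3 per genotype and grouped by their titles, was made into TruSeq libraries, per the labels' protocols. The deposited values are FPKM per gene, a unit taken from the values since the files name none. The authors' files have 52872 rows each, of which 2 hold no identifier and were left out. A further 958 are loci assembled from reads, which were kept. Those that passed the filter count among the tested genes, in the adjustment of p-values and in the background shares. Per the submitters' processing notes, which give no roles, the listed build was GRCm38.p6 and the tools included HISAT2 2.1.0, RSEM, DESeq 1.26.0 and FastQC. The use of strand is not given in the sources used here. Antisense exons also cover 15.1% of Kif4, 13.4% of Ncapg, 12.7% of Cdc25c, 12.5% of Ccna2, 11.1% of Prc1, 7.1% of Plk1 and 6.6% of Nek2.

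Symbols, lengths and GC content came from GENCODE M21 (GRCm38), promoter windows from RefSeq. Depth was estimated from steps of low FPKM values, of which 87.0% to 89.5% lay within 0.15 of a whole fragment, and no counts were used. Genes with at least 1 FPKM in 3 libraries were compared as log2(FPKM + 1) by limma 3.58.1 in R 4.3.3 (mean trend, group only, two-sided, Benjamini-Hochberg over all tested genes, threshold 0.05), which was also run on simulated data. This scale understates changes of low genes, and FPKM values are relative to the library total. The median SD between replicates was 0.174, and no 2 libraries were identical. Alternatives were other scalings, pseudocount 0.1, no filter or one of 5 FPKM, a replicate block, each library left out (filter over 2 libraries), a 1.5-fold threshold and a loess correction for GC content and length, added after seeing the data.

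The members, lists and tests were chosen with earlier results of these data known. Named were all 47 genes, with library values for those not called or called higher and for up to 4 per class with the smallest p. Of the other mitosis genes, up to 2 called per class and all called higher were named. The remaining ones called lower, Pmf1 and the promoter factors were named after their values were seen.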

Additional observations from a re-analysis of the deposited data

How the results depend on the processing

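Of the 23 lower calls 17 held under every scaling, filter, pseudocount, block, loess correction and left-out library, and 6 (Ccna2, Cdc25b, Wee1, Tpx2, Nusap1, Prc1) were lost in at least 1, while Anln stayed higher in all. Of the 23 genes not called, 11 were called in none of these settings and 12 in at least 1. Median-ratio scaling gave a median of -0.46 for the 47 genes, and 36 lower and 21 higher among the other mitosis genes. Upper-quartile scaling gave -0.43, 35 and 22. Equal FPKM sums gave a median of -0.11 and 5 higher among the 47, and the loess correction a median of -0.36. These scalings move the median of all genes from 0.17 to between -0.01 and 0.31. The 1.5-fold threshold left 9 lower of the 47, 2 lower and 4 higher of the other mitosis genes, and 839 lower and 1535 higher of all. Replicate numbers do not pair the libraries (correlations of deviations 0, -0.01 and 0.05), and with the replicate block the 47 had 21 lower and 3 higher, Cdc25b and Wee1 no longer being called and Plk4 and Smc4 called higher. With single libraries left out the ranges were 18 to 25 lower and 1 to 4 higher of the 47, 17 to 28 lower and 22 to 45 higher of the other mitosis genes, 2436 to 3587 lower and 4231 to 5592 higher of all, and medians of -0.36 to -0.23. Signs turned only in genes not called. With median-ratio and upper-quartile scaling these were Birc5 (-0.09 and -0.06), Cdca8 (-0.15 and -0.12), Cenpe (-0.05 and -0.02), Kif20b (-0.14 and -0.12), Aurka (-0.06 and -0.03), Ncapg (-0.04 and -0.01) and Ect2 (-0.11 and -0.08). With equal FPKM sums they were Ccnf (0.05), Bub3 (0.10), Ttk (0.01), Cdc20 (0.15), Fzr1 (0.01), Kif4 (0.05) and Nek2 (0.09), and with the loess correction Cenpe (-0.10), Cdc20 (0.11), Kif20b (-0.29), Smc2 (-0.09), Ncapg (-0.23) and Ect2 (-0.16). With single libraries left out values ran from -0.14 to 0.01 for Bub3, -0.15 to 0.09 for Cdc20, -0.06 to 0.12 for Cdca8, -0.18 to 0.47 for Cenpe, -0.49 to 0.02 for Cenpf, -0.04 to 0.24 for Ect2, -0.19 to 0.32 for Kif20b, -0.22 to 0.01 for Kif4, -0.13 to 0.02 for Nek2 and -0.03 to 0.50 for Smc2. Apart from the scalings, which shift all genes, the cause of these changes was not tested. Depth is an estimate, and the 3 libraries per group limit what small differences can be called.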
